A study of Mus musculus with 17 samples.

Results

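Astrocytes were followed in the prefrontal cortex of tauopathy mice through 10 genes that mark these cells or their reaction to injury: Gfap, Vim, Serpina3n, S100b, Slc1a2, Slc1a3, Aqp4, Gja1, Aldh1l1 and Sox9. They were taken by gene symbol from a table of 56953 genes, in which each of the 10 symbols occurs once, and all 10 passed the filter on low counts, which 23062 genes of the table passed. Bulk mRNA of 17 libraries was sequenced, and each library came from the cortex at 8 months of age. All groups were on the B6C3F1/J background: 5 WT libraries, 6 hTau libraries from PS19 mice, which carry human Tau with the P301S mutation driven by the Prnp promoter, and 6 CgA-KO/hTau libraries from mice with the same transgene that also lack the Chga gene, which encodes chromogranin A (CgA), in the whole body. The study asked what the loss of CgA does to a brain under Tau pathology; no library came from mice that lack Chga without the transgene.

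Astrocytes take up glutamate and potassium around synapses, wrap blood vessels with their endfeet and exchange small molecules through gap junctions. After injury, and around protein deposits, they become reactive, a state in which the filament genes Gfap and Vim and the secreted protease inhibitor Serpina3n are known to rise. Slc1a2, Slc1a3, Aqp4, Gja1, Aldh1l1, S100b and Sox9 mark the cells themselves. In bulk tissue, more or fewer astrocytes cannot be told apart from more or less RNA per astrocyte.

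Levels are given as CPM, each count scaled to the size of its library (TMM). Total counts per library ran from 8838334 (WT replicate 4) to 227651681 (hTau replicate 6), and the lowest count of a member in any library was 70, for Serpina3n. Chga had 0 counts in each CgA-KO/hTau library and 152 to 180 CPM in each of the others. The libraries of a genotype were not alike. The Y-linked gene Ddx3y stood at 49.8 to 76.8 CPM in replicates 1 to 3 of every genotype, while no other library had more than 0.0582 CPM. The study states how many males and females each group held, and each genotype has as many libraries with Ddx3y as males. The labels do not give the sex of a library, and sex, litter and sample handling cannot be told apart in this split. In CgA-KO/hTau, the libraries with Ddx3y differed from those without it in more than that gene. The summed level of 12 markers of striatal neurons was 1773, 424 and 1790 CPM in CgA-KO/hTau replicates 1 to 3 and 198 to 225 CPM in replicates 4 to 6, against 164 to 220 CPM in hTau and 1108 to 3197 CPM in WT. The share of mitochondrial counts was 13.8% to 18.2% in CgA-KO/hTau replicates 1 to 3 and 3.84% to 10.9% in replicates 4 to 6. CgA-KO/hTau replicates 1 and 3 were close to each other (a robust SD of the log2 ratio of 0.098 over 3761 genes), as were hTau replicates 4 to 6 (0.0523 to 0.0607), while the other pairs within a genotype had at least 0.146. They were kept as separate samples. The tests of the members, and their difference by Ddx3y in CgA-KO/hTau against hTau, are also given below with them summed where that changes them. The gene lists and the neighbours of Chga were not read with them summed, so whether those results hold under summing is not known. The labels give replicates only as numbers, so p-values measure the spread between these libraries, which may be technical in part.

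The 3 genotypes were compared pairwise with edgeR, and Serpina3n gave the largest difference of the 10 genes in both contrasts with CgA-KO/hTau, at 2.56 ± 0.20 (SE) on the log2 scale against hTau and 2.81 ± 0.22 against WT. A gene was called at a false discovery rate (FDR, Benjamini-Hochberg adjusted p over all genes tested) under 0.05. In hTau against WT, 2 of the 10 members were higher (Vim and Aldh1l1) and none lower (edgeR, with 0 lower at an unadjusted p under 0.05 and 0 by DESeq2), where 5.90% of all genes tested were called. In CgA-KO/hTau against hTau, 3 were higher (Serpina3n, Aqp4 and Slc1a3) and none lower by edgeR, where 9.72% of all genes were called; Vim was lower at an unadjusted p under 0.05 and by DESeq2. In CgA-KO/hTau against WT, 2 were higher (Serpina3n and S100b) and none lower (edgeR, with 0 lower at an unadjusted p under 0.05 and 0 by DESeq2), where 6.46% of all genes were called. With 10 members, each of these counts rests on few genes. The threshold of the study's Methods, an absolute log2 difference above 0.5 together with p below 0.01 before adjustment, was passed by 2, 3 and 5 members in these contrasts, in the order above, where 7.39%, 9.73% and 7.75% of all genes passed. In each contrast 1 member had no overlap between the libraries compared, Aldh1l1 in hTau against WT and Serpina3n in the other 2, where 9.52%, 6.63% and 3.60% of all genes did not overlap. The median log2 fold change of the 10 members was 0.33, 0.16 and 0.56, beside 0.0097, 0.026 and 0.0090 over all genes. With the near-identical libraries summed, the Serpina3n calls held and the calls of the others were lost by edgeR, with adjusted p = 0.081 for Vim and 0.0873 for Aldh1l1 in hTau against WT, 0.148 for Aqp4 and 0.159 for Slc1a3 in CgA-KO/hTau against hTau, and 0.103 for S100b in CgA-KO/hTau against WT. Over all genes, 430, 159 and 571 of 22387 were called in that fit, in the order of the contrasts above. With the mean level of the striatal markers as a covariate, the differences of Aqp4 and Slc1a3 from hTau were 0.32 ± 0.18 and 0.28 ± 0.15 (adjusted p = 0.251 and 0.249, edgeR), and that of Aldh1l1 between hTau and WT was 1.33 ± 0.23 (adjusted p = 0.00328, edgeR). The summed striatal markers of hTau (164 to 220 CPM) and WT (1108 to 3197 CPM) do not overlap. For hTau against WT, this covariate therefore cannot separate genotype from striatal content. The contrasts share libraries, and hTau and WT each stand in 2 of them.

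**Figure D1:**
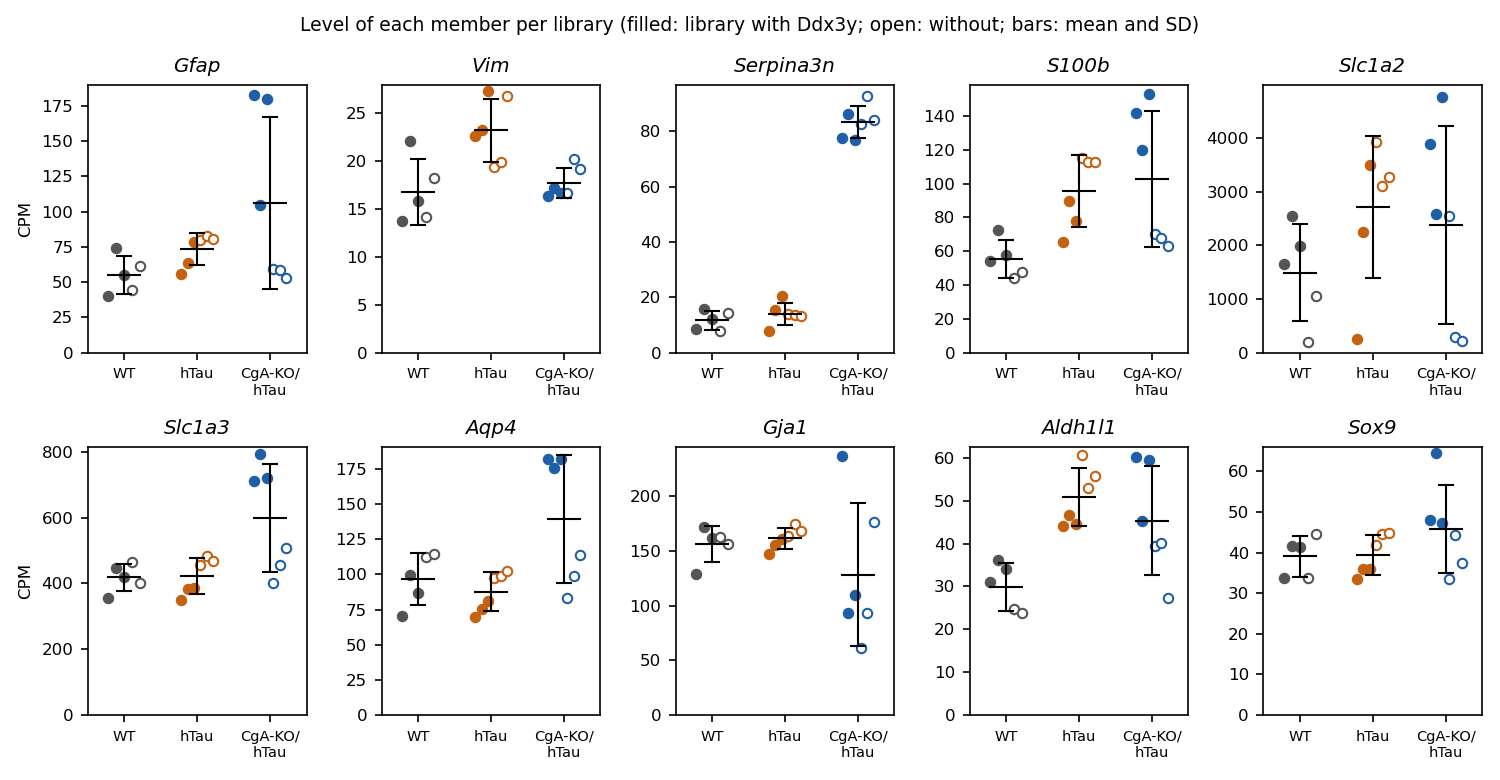
Level of the 10 members in each of the 17 libraries, in CPM on a linear axis from 0, by genotype (5 WT, 6 hTau and 6 CgA-KO/hTau libraries). Filled points are libraries with Ddx3y, open points those without, and the bars give the mean and SD. All 6 CgA-KO/hTau libraries of Serpina3n lie between 76.8 and 92.6 CPM, above every other library, while Gfap, Aqp4, S100b and Slc1a3 are high in the 3 filled CgA-KO/hTau points and not in the 3 open ones.

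Serpina3n encodes a secreted inhibitor of serine proteases and is one of the most used markers of reactive astrocytes. In GRCm38, the mm10 build, the gene spans positions 104406729 to 104414329 of chromosome 12, on the plus strand. It was 8.59, 15.8, 12.1, 7.98 and 14.5 CPM in WT replicates 1 to 5. In hTau it was 7.80 CPM in the lowest library, 13.8 at the median and 20.4 in the highest. In CgA-KO/hTau it was 76.8 CPM in the lowest library, 83.3 at the median and 92.6 in the highest. WT and hTau overlapped throughout, and every CgA-KO/hTau library was more than 3 times as high as the highest library of the other 2 genotypes, with a spread of 7.06% of the mean. The mean was 5.90-fold higher than in hTau (adjusted p = 6.42e-07, edgeR) and 6.99-fold higher than in WT (adjusted p = 5.98e-07, edgeR), and Serpina3n ranked 6 by p among all genes tested against hTau. Between hTau and WT the log2 difference was 0.24 ± 0.20 (SE), with an adjusted p of 0.519 (edgeR). Leaving out each library in turn left the difference from hTau at 2.44 to 2.71 on the log2 scale, and the call held in all 17 of these fits and under the 15 other settings tried.

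The same difference was present in libraries with and without Ddx3y. Serpina3n was 2.46 higher on the log2 scale than in hTau in the libraries with Ddx3y and 2.66 higher in those without, and the difference between these values was -0.21 ± 0.40 (SE, adjusted p = 0.792, edgeR interaction term). Its level was 76.8 to 86.1 CPM in CgA-KO/hTau replicates 1 to 3, which hold the striatal signal, and 82.7 to 92.6 CPM in replicates 4 to 6, which do not.

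The 300 bases around the RefSeq start of 3 members (GRCm38.p6, 250 before and 50 after the start) are printed here, since Serpina3n, Gfap and Slc1a3 are all higher in at least some CgA-KO/hTau libraries and 2 of them hold the palindrome TTCNNNGAA, the core of the site bound by STAT factors such as STAT3, a known regulator of reactive astrocytes. Capitals mark that palindrome, and the rest is in lower case, 5′ to 3′ on the strand of the gene.
Serpina3n, chr12:104406458-104406757, plus strand: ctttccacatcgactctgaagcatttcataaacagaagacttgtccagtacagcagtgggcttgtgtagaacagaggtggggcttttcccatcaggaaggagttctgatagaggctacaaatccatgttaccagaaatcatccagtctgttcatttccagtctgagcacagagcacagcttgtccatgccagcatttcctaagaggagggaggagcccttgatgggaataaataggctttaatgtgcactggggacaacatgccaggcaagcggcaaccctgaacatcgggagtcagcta
Gfap, chr11:102897151-102897450, minus strand: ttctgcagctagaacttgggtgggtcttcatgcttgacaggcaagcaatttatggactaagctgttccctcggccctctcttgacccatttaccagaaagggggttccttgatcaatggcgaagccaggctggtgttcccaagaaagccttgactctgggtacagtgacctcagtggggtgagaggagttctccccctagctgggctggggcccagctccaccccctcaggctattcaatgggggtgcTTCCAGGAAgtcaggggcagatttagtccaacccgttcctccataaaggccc
Slc1a3, chr15:8710758-8711057, minus strand: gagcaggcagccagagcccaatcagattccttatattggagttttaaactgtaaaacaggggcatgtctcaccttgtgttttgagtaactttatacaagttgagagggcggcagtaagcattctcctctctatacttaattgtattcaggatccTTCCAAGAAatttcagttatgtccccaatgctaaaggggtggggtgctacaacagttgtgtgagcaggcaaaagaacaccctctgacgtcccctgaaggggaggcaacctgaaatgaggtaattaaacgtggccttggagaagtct

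RefSeq windows of 8 of the 10 members were searched; Sox9 had no entry, and that of Aqp4 was not used here. The Gfap window held 1 palindrome, at bases 249 to 257 counted from the 5′ end, and the Slc1a3 window held 1, at bases 155 to 163. The letters were not in the windows of Serpina3n, Vim, S100b, Aldh1l1, Slc1a2 or Gja1 on either strand, and 8.3% of 32851 RefSeq windows of the same length hold them. The Gfap window lies inside the gene as GENCODE draws it, since GENCODE holds a transcript that starts further upstream. A match in letters is a description of the sequence and not a bound site.

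Serpina3n lies 1.84 Mb from Chga, the deleted gene, and the neighbourhood was looked at after this had been seen. CgA-KO mice were first made on a mixed 129 and C57BL/6 background and then backcrossed, by the study's Methods. Of 105 genes tested within 5 Mb of Chga, 11 were higher and 5 lower in CgA-KO/hTau than in hTau, which is 15.2% of them, against 9.69% of all other genes tested. Between hTau and WT, which both carry Chga, 6.67% of the 105 were called, against 5.9% of the others. Without Serpina3n, 15 of 104 were called against hTau. Of the 26 genes tested between Chga and Serpina3n, 3 were higher and 2 lower. The part of the linked chromosome in the level of Serpina3n was not tested.

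The nearest relatives of Serpina3n in the same chromosome stretch were read at far lower levels. Serpina3g, the 1 of 10 other Serpina3 genes that passed the filter on low counts, was at most 1.24 CPM in any library, and its difference of 3.59 ± 1.17 (SE, log2) between CgA-KO/hTau and hTau had an adjusted p of 0.0598 (edgeR). Serpina3m reached 1.43 CPM in its highest library, and the other Serpina3 genes stayed at or under 0.342 CPM. Serpina1b, a relative of the alpha-1 antitrypsin group picked out after its values were seen, was 0.203 to 0.41 CPM in CgA-KO/hTau and at most 0.0879 CPM elsewhere. These genes are similar in sequence, so reads of one may be counted in another.

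**Figure D2:**
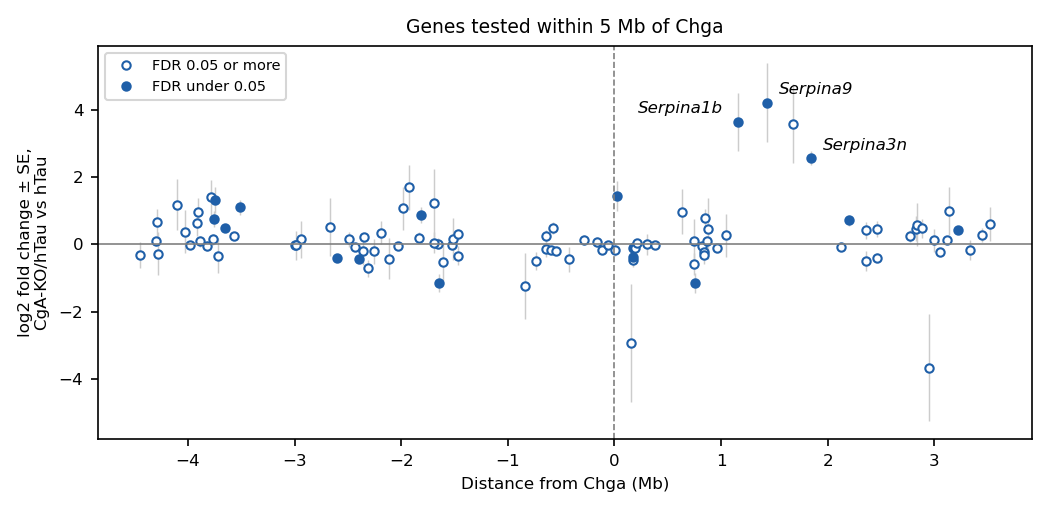
Log2 fold change with its SE, CgA-KO/hTau against hTau, for the 105 genes tested within 5 Mb of Chga, by distance from Chga in Mb (Chga itself is left out). Filled points have an FDR under 0.05. Serpina3n, at 1.84 Mb, has a difference of 2.56 with a small error, and Serpina1b (3.64) and Serpina9 (4.21), nearer to Chga, have larger differences with larger errors.

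Gfap encodes the main intermediate filament of astrocytes and is the usual protein stained to show astrocyte reaction. It lies on chromosome 11 from 102887336 to 102900912, on the minus strand. Gfap was 40.2, 74.6, 54.9, 44.7 and 61.3 CPM in WT replicates 1 to 5. In hTau it was 55.6 CPM in the lowest library, 79.4 at the median and 82.6 in the highest. In CgA-KO/hTau it was 183, 105 and 180 CPM in replicates 1 to 3 and 59.1, 58.8 and 52.8 CPM in replicates 4 to 6. The CgA-KO/hTau libraries thus lay in separate ranges, one above every hTau library and one around the level of WT. The mean of all 6 was 0.53 ± 0.29 (SE) higher than hTau on the log2 scale, with an adjusted p of 0.236 (edgeR). It was 0.95 ± 0.31 higher than WT, with an adjusted p of 0.0737 (edgeR) and an unadjusted p of 0.0063 that passed the Methods threshold. The hTau mean was 0.41 ± 0.30 above WT (adjusted p = 0.469, edgeR).

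Vim, vimentin, is the other filament gene of reactive astrocytes and is also expressed by vessel cells. It was 13.7, 22.1, 15.8, 14.1 and 18.2 CPM in WT replicates 1 to 5. The hTau libraries ran from 19.4 through a median of 22.9 to 27.3 CPM, and the CgA-KO/hTau libraries from 16.4 through 16.9 to 20.2 CPM. Of the 6 hTau libraries, 4 lay above every WT library, and 5 of the 6 CgA-KO/hTau libraries lay below every hTau library. Vim was 1.38-fold higher in hTau than in WT, 0.46 ± 0.13 (SE) on the log2 scale with an adjusted p of 0.0451 (edgeR). This call is close to the threshold and was lost, at adjusted p = 0.0509 to 0.102 (edgeR), on leaving out any 1 of WT replicates 1, 3, 4 and 5, hTau replicates 1, 2, 3 and 6 and CgA-KO/hTau replicates 1 and 2. It was also lost under 8 of the 15 other settings, at adjusted p up to 0.27, among them limma voom (0.0576), the fit of the 2 genotypes alone (0.0653, edgeR), the striatal covariate (0.27, edgeR) and the libraries with (0.192) or without Ddx3y (0.224, edgeR) alone. In CgA-KO/hTau the difference from hTau was -0.39 ± 0.12 and narrowly missed the threshold, with an adjusted p of 0.054 (edgeR). The difference of CgA-KO/hTau from WT was 0.071 ± 0.13 (adjusted p = 0.813, edgeR).

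S100b encodes a calcium-binding protein that astrocytes make and secrete and that some oligodendrocytes also make. It was 54.4, 72.6, 57.9, 44.4 and 47.8 CPM in WT replicates 1 to 5. In hTau it was 65.4 CPM in the lowest library, 101 at the median and 115 in the highest, and 5 of the 6 lay above every WT library. In CgA-KO/hTau it was 142, 120 and 153 CPM in replicates 1 to 3 and 70.3, 67.9 and 63.2 CPM in replicates 4 to 6. S100b was 1.85-fold higher in CgA-KO/hTau than in WT (0.89 ± 0.24, log2, adjusted p = 0.0341, edgeR). The call was lost, at adjusted p = 0.0578 to 0.0972 (edgeR), on leaving out any 1 of WT replicates 1, 3, 4 and 5 or CgA-KO/hTau replicates 1, 2 and 3. The hTau mean was 0.79 ± 0.24 above WT, which missed the FDR threshold (adjusted p = 0.0606, edgeR) and passed that of the Methods. Between CgA-KO/hTau and hTau the difference of the means was 0.10 ± 0.22 (adjusted p = 0.808, edgeR).

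Slc1a2 and Slc1a3 encode GLT-1 and GLAST, the transporters that clear most of the glutamate released at synapses. Slc1a3, on chromosome 15 from 8634124 to 8710764, was 357, 448, 419, 466 and 402 CPM in WT replicates 1 to 5. The hTau libraries ran from 351 CPM through a median of 422 to 483. In CgA-KO/hTau it was 712, 794 and 721 CPM in replicates 1 to 3 and 401, 455 and 508 CPM in replicates 4 to 6. WT and hTau overlapped, and 4 of the 6 CgA-KO/hTau libraries were above every hTau library. The mean was 1.42-fold higher in CgA-KO/hTau than in hTau (0.51 ± 0.15, log2, adjusted p = 0.0465, edgeR). This call was lost in 13 of the 17 fits that left out 1 library, at adjusted p = 0.0509 to 0.12 (edgeR), and it held without WT replicate 4 and without any 1 of CgA-KO/hTau replicates 4, 5 and 6. It was also lost under 7 of the 15 other settings, among them the Ddx3y covariate (adjusted p = 0.0571, edgeR), the fit of the 2 genotypes alone (0.0612, edgeR) and the libraries without Ddx3y alone (0.819, edgeR). Against WT the difference was of like size, 0.52 ± 0.16, with an adjusted p of 0.0659 (edgeR).

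Slc1a2 had the highest level of the 10 genes and the widest spread. It was 1660, 2554, 1994, 199 and 1058 CPM in WT replicates 1 to 5. In hTau it was 262 CPM in replicate 1 and 2252 to 3919 CPM in the others. In CgA-KO/hTau it was 3893, 2585, 4766 and 2545 CPM in replicates 1 to 4 and 294 and 228 CPM in replicates 5 and 6. Thus 4 libraries, found in every genotype, stood at 199 to 294 CPM, and the next library up was 3.60-fold higher than the highest of these. Of the 4274 genes tested with a mean of at least 50 CPM, Slc1a2 was the 1 gene for which these 4 libraries were all more than 3-fold below all the rest. They had total counts of 8838334 to 55843577, against 33511454 or more in the other libraries. The standard error was 0.69 to 0.74 on the log2 scale, and no contrast passed (adjusted p = 0.545, 0.892 and 0.652 for hTau against WT, CgA-KO/hTau against hTau and CgA-KO/hTau against WT, edgeR). With this spread, a difference of the size called for Aqp4 or Slc1a3 was not detectable for Slc1a2.

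Aqp4 encodes aquaporin-4, the water channel of astrocyte endfeet. It was 70.7, 99.2, 86.6, 112 and 115 CPM in WT replicates 1 to 5. Levels in hTau ran from 69.7 CPM through a median of 89.3 to 103. The CgA-KO/hTau libraries gave 182, 176 and 182 CPM in replicates 1 to 3 and 83.3, 98.9 and 114 CPM in replicates 4 to 6. The first 3 were above every library of the other genotypes, and the last 3 lay in or just above the range of hTau. The mean was 1.59-fold higher than in hTau (0.67 ± 0.19, log2, adjusted p = 0.0366, edgeR). The call was lost, at adjusted p = 0.0527 to 0.0911 (edgeR), on leaving out any 1 of hTau replicates 1 to 5 or CgA-KO/hTau replicates 1, 2 and 3. Against WT the difference was 0.53 ± 0.20 (adjusted p = 0.132, edgeR), and hTau and WT differed by -0.14 ± 0.20 (adjusted p = 0.741, edgeR).

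Gja1 encodes connexin 43, the main gap junction protein of astrocytes. It was 129 to 172 CPM in WT and 147 to 175 CPM in hTau, with a spread of 6.04% of the mean in hTau. The CgA-KO/hTau libraries gave 237, 93.4, 110, 61.7, 93 and 176 CPM in replicates 1 to 6, a spread of 50.8% of the mean. Replicates 1 and 3, which were near-identical in most genes, differed by 1.10 on the log2 scale in Gja1, where 49 of 4274 genes with a mean of at least 50 CPM differed more than 2-fold between them. Of the 6 CgA-KO/hTau libraries, 4 were below and 2 above every hTau library, and the difference of the means, -0.33 ± 0.23, did not pass (adjusted p = 0.364, edgeR).

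Aldh1l1 encodes a folate enzyme and is a widely used pan-astrocyte marker. It lies on chromosome 6 from 90486427 to 90600203. It was 31, 36.1, 34, 24.6 and 23.7 CPM in WT replicates 1 to 5. The hTau libraries ran from 44 CPM through a median of 49.8 to 60.8, so that all 6 lay above all of WT. In CgA-KO/hTau it was 27.4 CPM in the lowest library, 42.7 at the median and 60.2 in the highest, and 5 of the 6 lay above all of WT. Aldh1l1 was 1.70-fold higher in hTau than in WT (0.76 ± 0.18, log2, adjusted p = 0.0166, edgeR), and leaving out WT replicate 5 lost the call, at an adjusted p of 0.0627 (edgeR). In the libraries with Ddx3y alone, the difference was 0.42 with an adjusted p of 0.147 (edgeR). The difference of CgA-KO/hTau from WT, 0.60 ± 0.18, had an adjusted p of 0.0527 (edgeR), and that from hTau, -0.16 ± 0.17, one of 0.556 (edgeR).

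Sox9 is a transcription factor that sets and maintains astrocyte fate. It was 33.6 to 44.5 CPM in WT and 33.6 to 44.8 CPM in hTau, which overlapped fully. The CgA-KO/hTau libraries gave 47.9, 64.5 and 47.3 CPM in replicates 1 to 3 and 33.4, 44.3 and 37.5 CPM in replicates 4 to 6. Its differences were 0.012 ± 0.15 for hTau against WT (adjusted p = 0.979, edgeR), 0.22 ± 0.14 for CgA-KO/hTau against hTau (adjusted p = 0.321, edgeR) and 0.23 ± 0.15 for CgA-KO/hTau against WT (adjusted p = 0.393, edgeR).

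**Figure D3:**
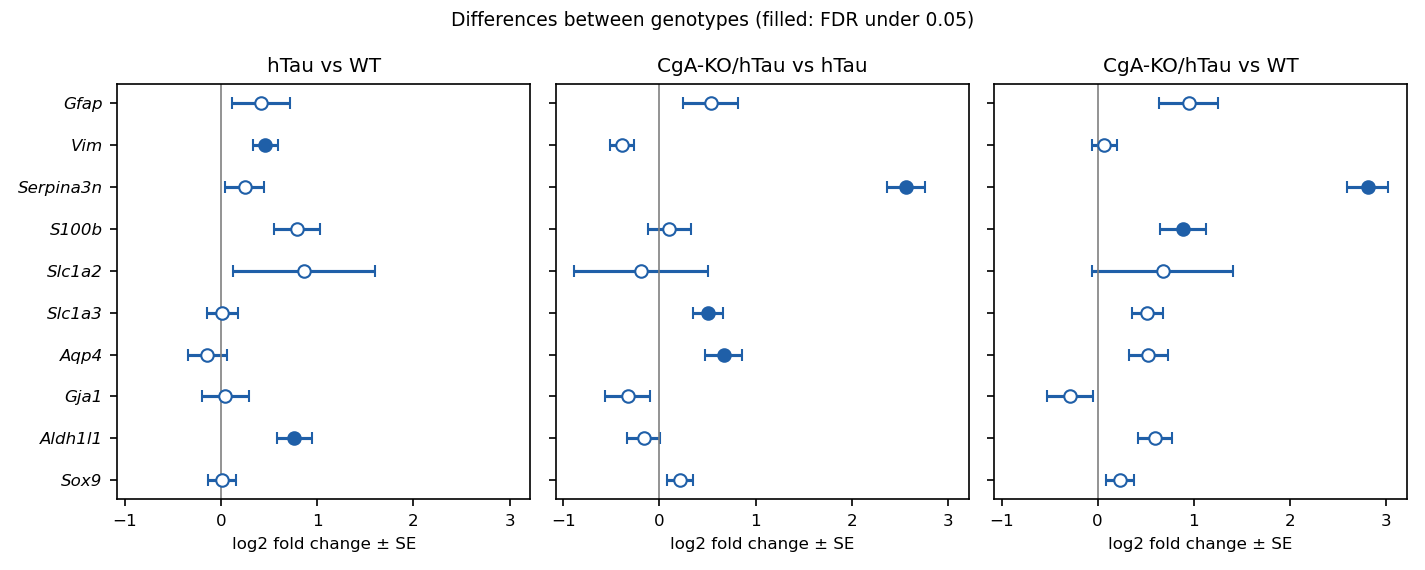
Log2 fold change with its SE for the 10 members in the 3 contrasts, first-named genotype minus the second. Filled points have an FDR under 0.05. Serpina3n stands at 2.56 and 2.81 in the contrasts with CgA-KO/hTau, and the called differences of the other members lie between 0.46 and 0.89.

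Per kilobase of exon (GENCODE M21, union of exons), Slc1a2 had the highest mean level over all libraries, at 171 CPM per kb, followed by S100b at 58.1 and Slc1a3 at 56.6. Gfap, Serpina3n and Aqp4 followed at 18.9, 18.3 and 17.4 CPM per kb, Gja1 at 14.5, Sox9 and Aldh1l1 at 10.1 and 9.46, and Vim was lowest at 4.08. The mean of S100b was below that of Slc1a3 in WT (37.3 ± 7.39 and 49 ± 4.98 CPM per kb, SD), above it in hTau (64.4 ± 14.3 and 49.4 ± 6.37) and close to it in CgA-KO/hTau (69.2 ± 27.2 and 70.1 ± 19.2). The 2 lay within their spread in each genotype. Sox9 and Aldh1l1 lay within their spread in CgA-KO/hTau too (11.1 ± 2.61 and 10 ± 2.81), as did Gfap and Aqp4. Serpina3n moved through this order: it was 5.71 ± 1.68 and 6.82 ± 1.96 CPM per kb (SD) in WT (n = 5) and hTau (n = 6), and 40.3 ± 2.85 in CgA-KO/hTau (n = 6). That mean was above the means of Gfap, 25.2 ± 14.5, and Aqp4, 22.3 ± 7.32, in CgA-KO/hTau. The spreads of Serpina3n and Gfap overlapped there, and Gfap was the higher of the 2 per kb in CgA-KO/hTau replicates 1 and 3.

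**Figure D4:**
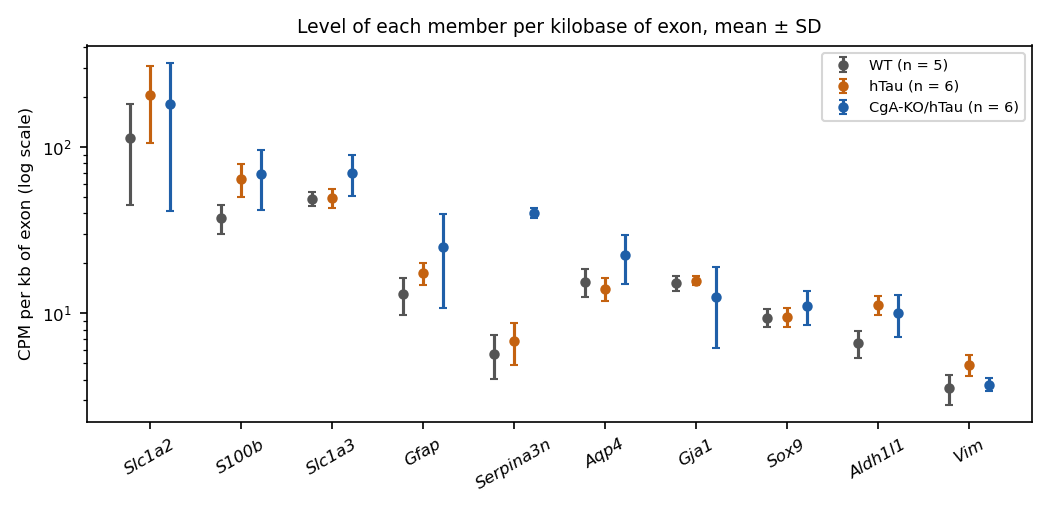
Mean level with SD in CPM per kilobase of exon, on a log axis, for the 10 members by genotype (WT n = 5, hTau n = 6, CgA-KO/hTau n = 6), ordered by the mean over all 17 libraries. Slc1a2 is highest, at 171, and Vim lowest, at 4.08, and Serpina3n changes its place between the genotypes from 5.71 in WT to 40.3 in CgA-KO/hTau.

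The higher levels of several members in CgA-KO/hTau replicates 1 to 3 were then put as a difference between libraries with and without Ddx3y. This split was chosen after those levels had been seen, so the p-values below describe the size of the difference against the spread and are not independent evidence of it. In the libraries with Ddx3y, Gfap was 1.24 higher on the log2 scale in CgA-KO/hTau than in hTau, and in the libraries without it 0.51 lower. S100b was 0.83 higher and 0.76 lower, Aqp4 1.25 higher and 0.016 lower, and Slc1a3 0.99 higher and 0.045 lower, in the same order. The hTau libraries were split too, in the other direction. With and without Ddx3y, Gfap was 55.6 to 78.5 and 80.2 to 82.6 CPM in hTau, and S100b 65.4 to 90 and 113 to 115 CPM. Aqp4 was 69.7 to 81.3 and 97.2 to 103 CPM, and Slc1a3 351 to 388 and 456 to 483 CPM. Aldh1l1 and Sox9 were also lower with Ddx3y in hTau, without overlap. Both genotypes thus enter the values here, and the hTau libraries without Ddx3y are the near-identical ones. The difference between the libraries with and those without Ddx3y was 1.75 ± 0.32 (SE) for Gfap (adjusted p = 0.00389), 1.59 ± 0.19 for S100b (adjusted p = 4.71e-04), 1.27 ± 0.18 for Aqp4 (adjusted p = 0.00107) and 1.03 ± 0.15 for Slc1a3 (adjusted p = 0.00125), by edgeR's interaction term. Aldh1l1 (0.95 ± 0.20, adjusted p = 0.00882) and Sox9 (0.79 ± 0.21, adjusted p = 0.0253) also passed (edgeR), so that 6 of the 10 members did, where 11.7% of all genes did. Without Ddx3y, S100b and Aldh1l1 (-0.66) were lower in CgA-KO/hTau than in hTau, with adjusted p = 0.00985 and 0.034 (edgeR). Vim (-0.31 ± 0.25), Serpina3n (-0.21 ± 0.40), Gja1 (0.54 ± 0.48) and Slc1a2 (2.65 ± 1.26) did not pass. In the same test of CgA-KO/hTau against WT, Gfap, Aqp4 and Slc1a3 passed, where 5.47% of all genes did, and of hTau against WT no member passed by edgeR, where 0.0564% of all genes did. In that contrast 2 members, S100b (-0.97 ± 0.20) and Aldh1l1 (-0.81 ± 0.22), had an unadjusted p under 0.05.

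That difference rests on few independent libraries. With CgA-KO/hTau replicates 1 and 3 summed to 1 library and hTau replicates 4 to 6 to 1, no member passed and 6 had an unadjusted p under 0.05 (edgeR). Gfap was at 1.62 with an adjusted p of 0.154, S100b at 1.55 with 0.0736, Aqp4 at 1.27 with 0.102 and Slc1a3 at 1.06 with 0.104. The sizes stayed near those above, and 0.0217% of all genes passed in that fit. With the mean striatal marker level as a covariate, S100b (1.41, adjusted p = 0.016), Aqp4 (1.20, adjusted p = 0.0217) and Slc1a3 (1.17, adjusted p = 0.0131) passed by edgeR, while Gfap (1.06, adjusted p = 0.151) did not. In that fit 2.16% of all genes passed. Within these 2 genotypes, the summed striatal markers were raised only in CgA-KO/hTau replicates 1 to 3 (424 to 1790 CPM). They were 198 to 225 CPM in replicates 4 to 6 and 164 to 220 CPM in hTau. The covariate therefore cannot clearly separate this difference from striatal content. Leaving out any 1 library left 5 to 7 members past the threshold, where 6.4% to 17.3% of all genes passed.

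**Figure D5:**
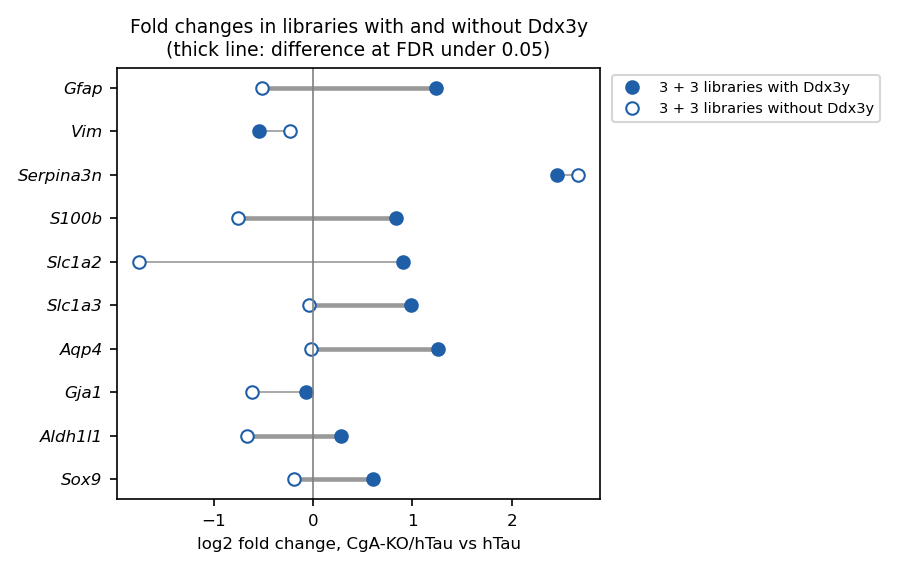
Log2 fold change of CgA-KO/hTau against hTau for each member, in the 3 + 3 libraries with Ddx3y (filled) and the 3 + 3 without (open). Thick lines join values whose difference has an FDR under 0.05. Gfap is at 1.24 with and -0.51 without Ddx3y, and the values of Serpina3n, 2.46 and 2.66, lie together.

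Levels of other cell types moved with this split. The sum of 10 oligodendrocyte markers was 3265, 2914 and 3312 CPM in CgA-KO/hTau replicates 1 to 3 and 1781 to 1890 CPM in replicates 4 to 6, against 1400 to 2054 CPM in hTau and 1318 to 2101 CPM in WT. The sum of 10 neuronal markers was 7399 to 10521 CPM in CgA-KO/hTau replicates 1 to 3 and 12487 to 16722 CPM in replicates 4 to 6. Among these markers, Mobp was 1.37 ± 0.28 and Mal 0.62 ± 0.16 higher in CgA-KO/hTau than in hTau, Gad1 fell by 0.78 ± 0.16 and Tubb3 fell by 0.62 ± 0.14 on the log2 scale (adjusted p = 0.00842, 0.0233, 0.00761 and 0.0125, edgeR). Mbp, Snap25 and Syt1 did not pass in that contrast (differences of 0.73, -0.14 and 0.68). Of the striatal markers, 8 of 12 rose against hTau, with Drd1 at 2.28 ± 0.52, Drd2 at 4.85 ± 1.02 and Penk at 2.10 ± 0.51 on the log2 scale, and 12 of 12 were lower in hTau than in WT. The tissue is prefrontal cortex by the study's Methods. Tbr1, a marker of cortical neurons that does not tell prefrontal from other cortex, was found in each genotype, at means of 209 to 251 CPM. The sum of 10 cortical neuron markers was 1635 to 2074 CPM in CgA-KO/hTau replicates 1 to 3, below every hTau library (2507 to 2923 CPM), and 2980 to 3535 CPM in replicates 4 to 6, with 1630 to 3600 CPM in WT. The part of these cell types in the levels of the members was not tested beyond the striatal covariate above.

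The summed levels of microglial, endothelial and mural markers also moved with the split in CgA-KO/hTau. They were 302 to 344, 222 to 248 and 216 to 220 CPM in replicates 1 to 3 and 189 to 252, 181 to 186 and 140 to 154 CPM in replicates 4 to 6, with no overlap. In hTau they were 272 to 335, 166 to 230 and 128 to 171 CPM. The blood markers were 211 to 298 CPM in CgA-KO/hTau replicates 1 to 3 and 117 to 166 CPM in replicates 4 to 6. Between genotypes, none of 12 microglial, 8 endothelial, 6 mural or 5 blood genes was called in any contrast by edgeR. Between CgA-KO/hTau and hTau, 2 of the microglial, 0 of the endothelial, 2 of the mural and 4 of the blood genes had an unadjusted p under 0.05, and DESeq2 called 0, 0, 1 and 2 of them and limma voom 2, 0, 2 and 0. Cx3cr1 and P2ry12 of microglia differed between CgA-KO/hTau and hTau by 0.58 ± 0.60 and 0.39 ± 0.48, Cldn5 and Pecam1 of vessels by -0.13 ± 0.23 and 0.042 ± 0.12, Pdgfrb and Rgs5 of mural cells by -0.15 ± 0.17 and 0.58 ± 0.18, and Hba-a1 and Hba-a2 of blood by -0.94 ± 0.31 and -0.92 ± 0.30 on the log2 scale. Among 6 oligodendrocyte precursor genes, Lhfpl3 was lower in hTau than in WT (-0.86 ± 0.15) and higher in CgA-KO/hTau than in hTau (0.54 ± 0.14), and Pdgfra and Cspg4 did not pass. Of 10 cortical neuron genes, Cux2 was higher in hTau than in WT (0.91 ± 0.20) and Lamp5 lower in CgA-KO/hTau than in hTau (-0.92 ± 0.28). Of 8 choroid plexus genes, 5 were lower in hTau than in WT, among them Ttr, Clic6 and Sostdc1, while Folr1 did not pass, and Clic6 was higher in CgA-KO/hTau than in hTau (2.07 ± 0.54). The choroid plexus sum was 1122 CPM in WT replicate 5 and at most 20.3 CPM elsewhere. Rsph1 and Ccdc153 of 8 ependymal genes were lower in hTau than in WT, and Cfap126 was higher in CgA-KO/hTau than in hTau, while Foxj1 did not pass. Of 8 meningeal genes, Dcn was lower and Ptgds higher in hTau than in WT, and Lum did not pass.

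Of 34 other genes of astrocyte identity, 3 rose in hTau against WT, 3 in CgA-KO/hTau against hTau and 10 in CgA-KO/hTau against WT. None fell by edgeR (0, 1 and 0 were lower at an unadjusted p under 0.05, and 0, 1 and 0 by DESeq2). The list medians were 0.29, 0.14 and 0.45 on the log2 scale. Over all genes tested, edgeR called 5.90%, 9.72% and 6.46% in these contrasts. Those shares stand beside the counts of every other gene list and marker set too, and most of these hold few genes. Ppp1r3c, which targets a phosphatase to glycogen, was 22 ± 4.87, 31 ± 8.42 and 54.6 ± 16.1 CPM (SD) in WT (n = 5), hTau (n = 6) and CgA-KO/hTau (n = 6), and rose against hTau by 0.82 ± 0.21 (SE, log2, adjusted p = 0.0231, edgeR). Mt1, a metal-binding metallothionein, rose by 0.70 ± 0.17 (adjusted p = 0.017, edgeR). Ranbp3l was 0.99 ± 0.20 and Cspg5, a proteoglycan, 0.30 ± 0.079 higher in hTau than in WT (adjusted p = 0.0075 and 0.0296, edgeR). The summed level of the 34 genes was 11880 to 12447 CPM in CgA-KO/hTau replicates 1 to 3 and 7801 to 8870 CPM in replicates 4 to 6, beside 7898 to 10275 CPM in hTau and 6417 to 8148 CPM in WT.

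The partners of the members were read in the same way. Of 10 endfoot genes around Aqp4, none was called in the first 2 contrasts by edgeR (3 and 2 had an unadjusted p under 0.05, DESeq2 called 0 and 0, and limma voom 1 and 2) and 2 rose in CgA-KO/hTau against WT, and Kcnj10, the potassium channel that sits with Aqp4, differed from hTau by -0.10 ± 0.19 and Dtna by 0.15 ± 0.13. Of 13 genes of glutamate and GABA handling, Grm5 was lower in hTau than in WT (-0.67 ± 0.13, adjusted p = 0.00397, edgeR), no gene was called by edgeR in CgA-KO/hTau against hTau (3 had an unadjusted p under 0.05, DESeq2 called 0 and limma voom 4), and 3 rose and 1 fell against WT. Of 8 connexins other than Gja1, Gjb6, connexin 30 of astrocytes, was 0.69 ± 0.16 higher in hTau than in WT. Against hTau, Gjc3 of oligodendrocytes rose by 0.70 ± 0.16, and Gjd2 of neurons and Gja4 of vessels fell by 0.74 ± 0.18 and by 0.80 ± 0.20. No other intermediate filament gene was called in any contrast among 7 by edgeR, while 2, 2 and 3 had an unadjusted p under 0.05, DESeq2 called 0, 1 and 2 and limma voom 2, 2 and 3. Plec and Synm differed between CgA-KO/hTau and hTau by -0.24 ± 0.12 and -0.35 ± 0.11.

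Among 9 S100 genes other than S100b, 3 rose in CgA-KO/hTau against hTau and none fell by edgeR, at an unadjusted p under 0.05 or by DESeq2, with a list median of 0.70 beside 0.026 over all genes. S100a10, S100a1 and S100a13 were 0.90 ± 0.16, 0.84 ± 0.21 and 0.61 ± 0.16 higher (adjusted p = 0.00475, 0.0213 and 0.0256, edgeR), while S100a6 was 0.67 ± 0.17 higher in hTau than in WT. The summed level of the 9 genes was 113 to 120 CPM in CgA-KO/hTau replicates 1 to 3 and 59, 74.2 and 97.5 CPM in replicates 4 to 6, against 49.8 to 70.3 CPM in hTau, so that 5 of the 6 lay above every hTau library. Of 16 transcription factors of the lineage, Id2 was higher (0.52 ± 0.11) and Id4 lower (-1.05 ± 0.22) in hTau than in WT, and Id4 rose in CgA-KO/hTau against hTau (0.91 ± 0.21, adjusted p = 0.0166, edgeR).

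Other genes tied to reactive astrocytes were read as 5 lists. The JAK and STAT3 list holds genes of a signalling pathway and is not a list of genes known to rise. Of 10 genes induced in reactive astrocytes of any kind, Cd44, a hyaluronan receptor, and Osmr, the oncostatin M receptor, rose in CgA-KO/hTau against hTau by 0.78 ± 0.22 and 0.73 ± 0.20 (adjusted p = 0.037 and 0.0305, edgeR), none fell by edgeR (2 were lower at an unadjusted p under 0.05, and DESeq2 called 0 and limma voom 1), and the list median was 0.012. Cd44 was lower in hTau than in WT (-1.52 ± 0.24, adjusted p = 0.00114, edgeR). Of the 11 tested genes of the neuroinflammatory (A1) type, Amigo2 was lower in hTau than in WT (-0.87 ± 0.20) and none was called against hTau by edgeR (3 had an unadjusted p under 0.05, DESeq2 called 2 and limma voom 3), with a list median of -0.23, and of the 10 tested of the ischaemic (A2) type S100a10 rose against hTau, with a list median of 0.14. Of 12 tested genes of the JAK and STAT3 pathway, Lifr was higher in hTau than in WT (0.65 ± 0.18) and Osmr higher in CgA-KO/hTau than in hTau, where the list median was -0.13. Of 11 tested genes of disease-associated astrocytes, Fabp7 rose (1.34 ± 0.32) and Ctsb and Sulf2 fell by 0.49 ± 0.12 and by 0.67 ± 0.19 in CgA-KO/hTau against hTau, with a list median of 0.085.

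By Pearson's r of log2(CPM + 1) over the 17 libraries, among 15474 genes with a mean of at least 1 CPM, the genes whose pattern was most like that of Serpina3n were Gm26782 (r = 0.959), Pcdhga5 (0.948), Pglyrp1 (0.934), Pop4 (0.93) and Rps3a1 (0.918). Among those most like Gfap were Hadh (0.971), Sqor (0.95), Lonrf3 (0.931) and Gm54878 (0.93). Those most like Slc1a2 were Adgre1 (0.919), Gprc5c (0.918), Gm49179 (0.904), Tpcn2 (0.895) and Slc25a15 (0.894). No member was among them. The libraries share genotype and the split by Ddx3y, and the values describe likeness across these libraries only.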

How the data were processed

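Prefrontal cortex RNA was sequenced as polyA mRNA, paired-end, in 17 libraries grouped by genotype as labelled. The authors trimmed reads with Trimmomatic 0.39, aligned them to mm10 with STAR 2.7.10b, quantified genes with StringTie 1.3.6 and converted coverage to a count table with prepDE; the deposited values are estimated counts per gene, not normalized, which can overstate precision at low counts. The annotation release and strand handling are not given in the sources used here, so overlapping genes and paralogs are uncertain. Coordinates and exon lengths are those of GENCODE M21 (GRCm38), and promoter windows are from RefSeq (GRCm38.p6).

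The counts, which were whole numbers, were analysed in their deposited form by edgeR 4.0.16 under R 4.3.3 (filterByExpr, TMM, quasi-likelihood, 1 mean per genotype, no covariate, Benjamini-Hochberg adjustment over 23062 genes). The test was run on simulated counts first. The alternatives were DESeq2 1.42.0, its size factors in edgeR, no filter, at least 10 counts in every library, 2 genotypes per fit, a robust fit, limma 3.58.1 voom with quality weights, a replicate block, 1 surrogate variable (sva 3.50.0), striatal and Ddx3y covariates, near-identical libraries summed, no mitochondrial genes, and each library left out. The fits split by Ddx3y (above 1 CPM or not) were added after seeing the data. The members and lists were chosen with earlier results of these data known. Named beside the members are up to 4 called genes with the smallest p per list in the first 2 contrasts (otherwise the 2 of highest level), for marker lists the 2 listed first and up to 2 more, and the 5 genes most like Gfap, Serpina3n and Slc1a2. Some genes that this rule takes are not reported here. Python 3.11.15, pandas 2.3.3 and matplotlib 3.10.9 made the tables and figures.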

Additional observations from a re-analysis of the deposited data

Results flagged for a closer look

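The genotype difference between CgA-KO/hTau and hTau was not the same in libraries with and without Ddx3y for 6 members, by edgeR's interaction term at an FDR under 0.05. Over all genes, 11.7% passed. The split was chosen after the high levels in CgA-KO/hTau replicates 1 to 3 had been seen, so this is a description and no independent test. In hTau, the libraries with Ddx3y were lower than those without it in these 6 members, so both genotypes enter the difference. The log2 fold change with Ddx3y minus that without was 1.75 for Gfap, 1.27 for Aqp4, 1.59 for S100b, 0.95 for Aldh1l1, 1.03 for Slc1a3 and 0.79 for Sox9. For CgA-KO/hTau against WT it was 1.37 for Gfap (adjusted p = 0.0312), 1.28 for Aqp4 (adjusted p = 0.00351) and 0.80 for Slc1a3 (adjusted p = 0.0128, edgeR). These 2 contrasts share the CgA-KO/hTau libraries. CgA-KO/hTau replicates 1 to 3, which carry Ddx3y, also had 424 to 1790 CPM of striatal markers and 13.8% to 18.2% mitochondrial counts. Their Prnp level, 1236 to 1348 CPM, was below that of every other library with the transgene. With the near-identical libraries summed, 0 members passed in CgA-KO/hTau against hTau, and 6 had an unadjusted p under 0.05 (edgeR). In 30 sets of 1 member in 1 genotype, Dixon's test on CPM, not on the log2 scale, flagged no library at the 95% level. The test looks for 1 library apart from the rest, so it cannot detect a split such as that of CgA-KO/hTau replicates 1 to 3 from the others. The low Slc1a2 level of hTau replicate 1 was not flagged either. Whether the libraries of a genotype were alike cannot be read from this test.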

How the results depend on the processing

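Serpina3n kept its direction and its call in both contrasts with CgA-KO/hTau under every alternative run. The count of members called in hTau against WT, 2 as reported, was 1 with no filter and with the replicate block, and 0 with near-identical libraries summed and in libraries with Ddx3y only. In CgA-KO/hTau against hTau, 3 as reported, it was 1 with no filter, the replicate block, the striatal covariate and near-identical libraries summed, and 7 in libraries with Ddx3y only. In CgA-KO/hTau against WT, 2 as reported, it was 1 with no filter, 2 genotypes in the fit, the replicate block and near-identical libraries summed, 4 with limma voom, 5 with DESeq2 and with 1 surrogate variable, 6 with the striatal covariate and 7 in libraries with Ddx3y only. Calls over all genes moved too. In CgA-KO/hTau against WT, 1489 of 23062 as reported, they were 2458 with limma voom, 2564 of 25967 with DESeq2, 3147 with 1 surrogate variable, 4974 with the striatal covariate and 4474 of 21613 in libraries with Ddx3y only. They fell to 266 of 20459 with 2 genotypes in the fit, 571 of 22387 with near-identical libraries summed and 614 with the replicate block. In CgA-KO/hTau against hTau, 2242 as reported, they were 1284 with the striatal covariate and 6713 of 21613 in libraries with Ddx3y only. They fell there to 654 with the replicate block and 159 of 22387 with near-identical libraries summed. In hTau against WT, 1361 as reported, they fell to 430 of 22387 with near-identical libraries summed and 128 of 21613 in libraries with Ddx3y only. Libraries without Ddx3y gave 2 members in each contrast, of which S100b in CgA-KO/hTau against hTau was lower, where 190 of 23562 genes were called. Leaving out 1 library gave 0 to 3, 1 to 4 and 1 to 6 members in these contrasts. Over all genes, 632 to 1658, 1019 to 3822 and 627 to 2099 were called in those fits. The count of members differing between libraries with and without Ddx3y, 6, was 3 with the striatal covariate and 0 with near-identical libraries summed. Over all genes, 11.7% passed as reported, and 2.16% and 0.0217% in those 2 fits. The cause of these shifts was not tested.

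Log2 differences that changed sign were, for hTau against WT, Slc1a3 and Sox9 at -0.0081 and -0.0052 with at least 10 counts in every library, at -0.010 and -0.0085 with 1 surrogate variable, at -0.073 and -0.068 with near-identical libraries summed and at -0.13 and -0.16 in libraries with Ddx3y, where Slc1a2 was at -0.052 and Gja1 at -0.0022; Gja1 at -0.020 with the replicate block; and Aqp4 at 0.53 with the striatal covariate. For CgA-KO/hTau against hTau, Gfap and S100b were at -0.25 and -0.35 with the striatal covariate, Aldh1l1 and Slc1a2 at 0.30 and 0.92 in libraries with Ddx3y, and Gfap, Aqp4, S100b, Slc1a3 and Sox9 at -0.53, -0.035, -0.78 (adjusted p = 0.016, edgeR), -0.064 and -0.21 in those without. For CgA-KO/hTau against WT, Vim was at -0.010 with limma voom and -0.030 in libraries with Ddx3y, and Aqp4 and Sox9 at -0.19 and -0.025 in those without. With each library left out, Slc1a3, Gja1 and Sox9 in hTau against WT ran from -0.039 to 0.059, -0.015 to 0.083 and -0.034 to 0.063, and S100b and Slc1a2 in CgA-KO/hTau against hTau from -0.038 to 0.21 and -0.50 to 0.052.

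Same-numbered replicates did not deviate together (r of -0.25 to 0.455 over 16 pairs, 2 of them over 0.1). The replicate block pairs libraries by number, and same-numbered libraries also share the presence or absence of Ddx3y. That block therefore takes up the split by Ddx3y too. The lowest count behind a level of a member was 70, for Serpina3n in WT replicate 4. Of the 34 identity genes, limma voom called 10, 8 and 13 and DESeq2 4, 4 and 14 in the contrasts, where edgeR called 3, 3 and 10. Over all genes, limma voom called 3967, 5229 and 2458 of 23062. DESeq2 called 2396 of 24423 in hTau against WT, and 3958 and 2564 of 25967 in the other contrasts.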
